A study of Homo sapiens with 6 samples.

Results

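Genes of glycolysis and of the cellular response to low oxygen were followed through 6 RNA sequencing libraries of pancreatic cancer cells. The set holds 35 genes of the 27408 in the deposited table. Its members were chosen by gene symbol, as glucose and lactate transporters, glycolytic enzymes, the oxygen sensor pathway and genes known to respond to it, and 122 transcripts of the table belong to them. The libraries came from a pair of established human cell lines of pancreatic cancer, MIA-PaCa2 and PANC-1. Either line carried the control construct LPCX, overexpressed ESRP1 or overexpressed ESRP2, and each of the 6 combinations was sequenced once. Both ESRP proteins bind RNA and guide which exons epithelial cells keep, and per the labels the study asked about their function in pancreatic cancer. Culture medium held 10% fetal bovine serum in all cases, and the labels name no low-oxygen or other treatment. The values are therefore read as those of ordinary culture, and the oxygen level in the cultures is unknown. Each line stands for itself alone, and nothing in the labels says whether a construct was studied in a pool of cells or in a clone.

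Glycolysis splits glucose into pyruvate in the cytosol, and many tumour cells turn much of that pyruvate into lactate and export it. Its enzymes are also targets of the hypoxia-inducible factors, transcription factors whose alpha subunit is marked for destruction by prolyl hydroxylases when oxygen is present. When oxygen falls, the alpha subunit pairs with its partner ARNT and binds DNA at hypoxia response elements, whose core is ACGTG or GCGTG. Pancreatic tumours are known for poor oxygen supply, and glucose uptake and lactate export are studied there as part of their metabolism.

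Stretches before the RefSeq start of 4 members are shown to let a reader see this core, in the genes with the largest change between lines (ADM, BNIP3) and in ALDOC and LDHA, which are among the 6 largest fitted changes with both ESRP constructs. They were taken from the RefSeq promoter table (GRCh38.p14), run 5′ to 3′ on the strand of the gene, and carry ACGTG or GCGTG, on either strand, in capitals. The BNIP3 stretch is chr10:131982014-131982173, minus strand, 250 to 91 bases before the RefSeq start. The ADM stretch is chr11:10304959-10304988, plus strand, 114 to 85 bases before the start. The LDHA stretch is chr11:18394473-18394502, plus strand, 90 to 61 bases before the first start. The ALDOC stretch is chr17:28577116-28577145, minus strand, 250 to 221 bases before the start. GENCODE release 29 places the start further out, by 90 bases in BNIP3, 393 in ADM, 175 in LDHA and 369 in ALDOC, so by that annotation the last 3 stretches lie within the transcript.
BNIP3: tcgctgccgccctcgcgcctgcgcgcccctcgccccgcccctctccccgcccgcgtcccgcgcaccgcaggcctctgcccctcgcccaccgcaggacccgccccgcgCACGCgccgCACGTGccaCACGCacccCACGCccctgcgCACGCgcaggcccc
ADM: agagcaggagcgcGCGTGgctgaggaaaga
LDHA: tcaCACGTGggttcccgCACGTccgccggc
ALDOC: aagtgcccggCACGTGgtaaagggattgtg

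The 250 bases before the start held 6 matches in BNIP3, 1 in ADM, 5 in LDHA and 5 in ALDOC, counting both strands and counting the palindrome CACGTG as 2. Of 62 windows of 250 bases for 32 members, 37 (59.68%) held at least 1 match, against 15172 of 35116 windows of all genes (43.21%). ACGTG alone was found in 22 member windows (35.48%) and in 6501 of all windows (18.51%). These shares count windows and not genes, and the 35116 windows came from 27305 genes. Members were chosen in part as known hypoxia response genes, and how far that choice sets their share was not tested. A match is a run of letters and no measured binding, and the RefSeq table holds no entry for SLC2A3, NDRG1 and BNIP3L.

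The values are TPM, an abundance scaled for transcript length and library size, summed over the transcripts of a gene. Between 10578 and 10932 genes reached 5 TPM in a library, and the number of reads behind the values is unknown. ESRP1 was at 367 and 491 TPM in the ESRP1 libraries of MIA-PaCa2 and PANC-1 and at 0.261 TPM or less in the other 4. ESRP2 was at 197 and 308 TPM in the ESRP2 libraries, and PANC-1 without that construct already held 34.8 and 37.7 TPM. The keratins KRT8, KRT18 and KRT19 lay between 234 and 2223 TPM in all 6 libraries. EPCAM was listed at 0 in MIA-PaCa2 and lay between 24.3 and 28.2 TPM in PANC-1, and KRT7 was at 2.00 TPM or less throughout. Of the leukocyte markers, PTPRC, CD3E and CD14 stayed under 0.9 TPM, and LYZ was at 9.84 TPM or less. CD68, a lysosomal protein, was at 20.5 to 23.3 TPM in MIA-PaCa2 and at 295 to 364 TPM in PANC-1. The 7 fibroblast and endothelial markers summed to 125 to 134 TPM in MIA-PaCa2, mostly COL1A2, and to 66.6 to 108 TPM in PANC-1, mostly COL1A1, with DCN and LUM at 0.0821 TPM or less. EPCAM, CD68 and both collagens thus differed between the lines, and their part in the line differences below was not tested.

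Together the 35 members took 1.19%, 1.24% and 1.21% of all TPM in the LPCX, ESRP1 and ESRP2 libraries of MIA-PaCa2, and 1.04%, 1.15% and 1.16% in those of PANC-1. Their levels ran from ENO1 at up to 2815 TPM to CA9, which was listed at 0 in 5 libraries. The 8 enzymes of the lower part of glycolysis made up most of the sum, with 9560 to 9944 TPM in MIA-PaCa2, against 7635 to 8376 TPM in PANC-1. Of the 35, 32 passed the filter for testing, at least 5 TPM in at least 2 libraries, and EGLN3, CA9 and CA12 did not. BNIP3, ADM, ANKRD37 and ALDOC passed through PANC-1 libraries alone and SLC2A3 through MIA-PaCa2 libraries alone, so a difference between lines was built into their passing. For ALDOC these were the PANC-1 ESRP1 and ESRP2 libraries, so a difference from LPCX was built in as well.

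**Figure D1:**
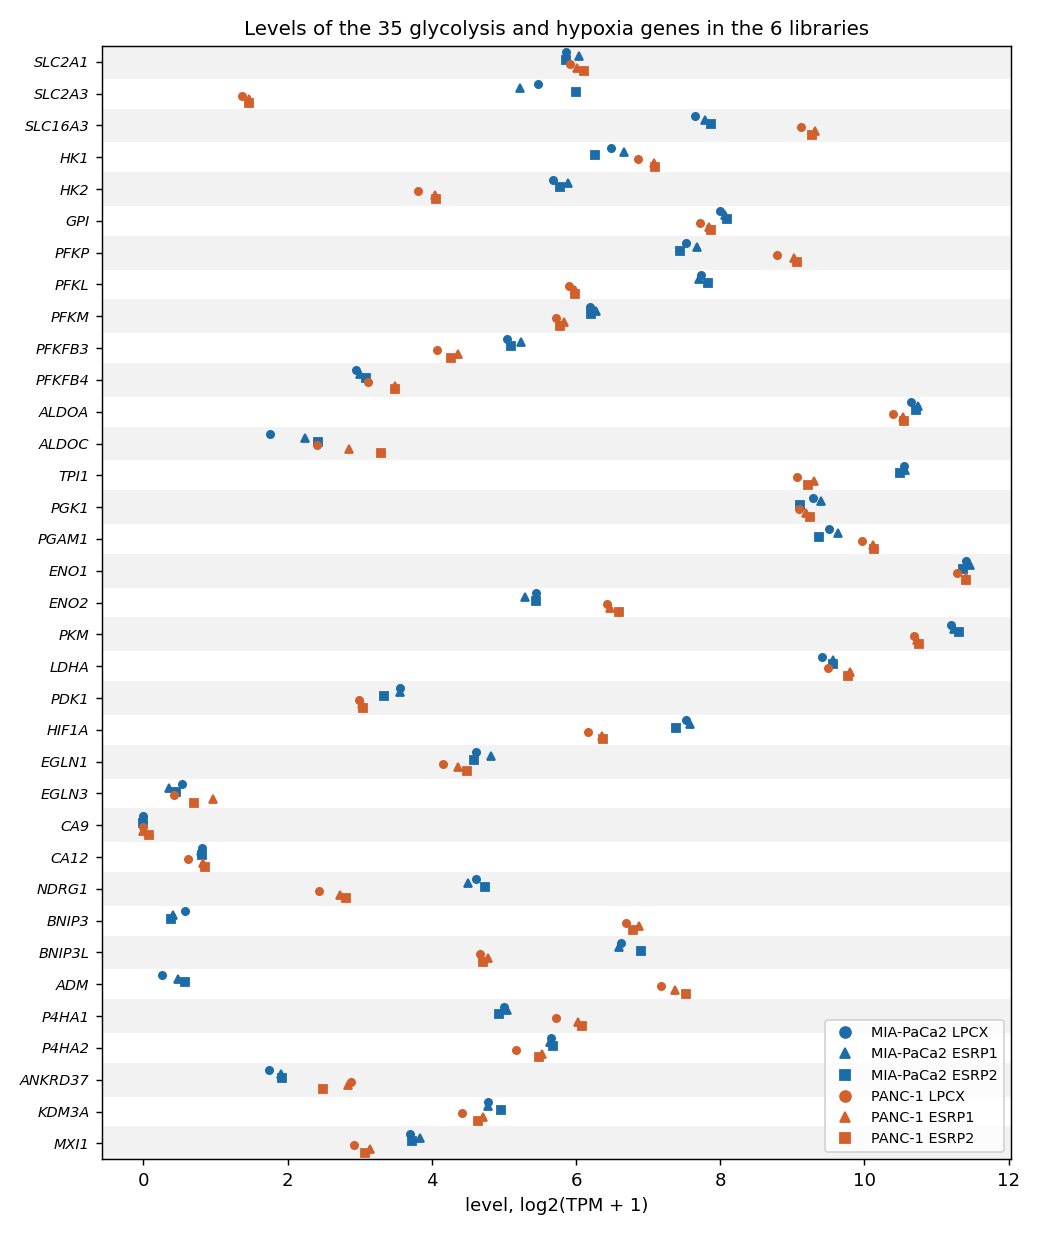
Level of each of the 35 members on an axis of log2 of TPM plus 1, with 1 point for each of the 6 libraries. MIA-PaCa2 and PANC-1 are in different colours and the 3 constructs in different shapes. BNIP3 and ADM separate the lines most, near or under 0.5 TPM in MIA-PaCa2 and above 100 TPM in PANC-1, while SLC2A3 separates them in the other direction.

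The lines were compared with limma on log2 of TPM plus 1 over 11829 genes, with construct as a term, so that each fold change rests on 3 pairs of libraries and is on the log2(TPM + 1) scale. Of the 32 tested members, 11 were higher and 17 lower in PANC-1 (Benjamini-Hochberg adjusted p at most 0.05), which is 87.5% of them. Most genes differed between these lines, 78.8% of all those tested, with 43.1% higher and 35.6% lower, so a share of this size is near the background. The median log2 change was -0.22 for the members and 0.08 for all genes tested. In 10 members all PANC-1 libraries lay above all MIA-PaCa2 libraries (43.1% of all genes) and in 17 all lay below (36.3%), 79.4% of all genes in either direction, while SLC2A1, ALDOC, PGK1, ENO1 and LDHA overlapped. The libraries of a line differ in construct, so the spread behind these tests is how far the line difference varied across the 3 pairs. It is not a spread between repeat cultures.

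Values follow in the order LPCX, ESRP1, ESRP2 for each line. SLC2A1, or GLUT1, the common glucose transporter of tumour cells, was at 56.9, 64.8 and 57.0 TPM in MIA-PaCa2 and at 59.7, 63.6 and 68.1 TPM in PANC-1. These 6 values overlapped, with a log2 difference of 0.10 (SE 0.0738, adjusted p = 0.265). SLC2A3, or GLUT3, a transporter of high glucose affinity, was at 43.6, 36.4 and 63.2 TPM in MIA-PaCa2 and at 1.57, 1.76 and 1.75 TPM in PANC-1. Of all members it was the most reduced in PANC-1, by a log2 change of -4.14 (SE 0.157, adjusted p = 9.77e-06), or -4.70 and -2.95 with a pseudocount of 0.1 and 5 TPM. Within the pair, SLC2A3 made up 43.4%, 35.95% and 52.6% of the summed TPM in MIA-PaCa2, against 2.57%, 2.69% and 2.51% in PANC-1. SLC16A3, or MCT4, which exports lactate, was at 201, 220.4 and 232 TPM in MIA-PaCa2 and at 556, 633 and 617 TPM in PANC-1. All 3 PANC-1 libraries lay above those of MIA-PaCa2, by a log2 change of 1.46 (SE 0.0577, adjusted p = 1.10e-05).

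Hexokinases commit glucose to the cell by phosphorylating it, HK1 being the widely expressed form and HK2 the form often raised in tumours. HK1 was at 88.7, 100.04 and 75.6 TPM in MIA-PaCa2 and at 115, 135 and 135 TPM in PANC-1, a log2 change of 0.54 (SE 0.103, adjusted p = 0.00423). HK2 went the other way, with 50.3, 58.4 and 53.9 TPM in MIA-PaCa2 against 13.0, 15.6 and 15.7 TPM in PANC-1, a log2 change of -1.81 (SE 0.0668, adjusted p = 8.91e-06). HK2 thus took 36.2%, 36.9% and 41.6% of the HK1 and HK2 sum in MIA-PaCa2, against 10.2%, 10.4% and 10.4% in PANC-1. The sum itself lay between 129 and 158 TPM in MIA-PaCa2 and between 128 and 151 TPM in PANC-1, ranges that overlap. GPI, which turns glucose 6-phosphate into fructose 6-phosphate, was at 254, 266 and 273 TPM against 211, 229.8 and 234 TPM, lower in PANC-1 by a log2 change of -0.23 (SE 0.0539, adjusted p = 0.00923).

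Phosphofructokinase, the committed step of glycolysis, is a tetramer of platelet, liver and muscle type subunits encoded by PFKP, PFKL and PFKM. PFKP was at 183, 204 and 173 TPM in MIA-PaCa2 and at 439, 519 and 536 TPM in PANC-1, higher by a log2 change of 1.41 (SE 0.0855, adjusted p = 4.34e-05). PFKL was at 212, 207 and 226 TPM in MIA-PaCa2 and at 58.9, 62.5 and 62.1 TPM in PANC-1, lower by a log2 change of -1.80 (SE 0.0584, adjusted p = 6.11e-06). Both separated the lines without overlap and in opposite directions. PFKM was at 72.2, 76.4 and 73.2 TPM against 51.6, 56.2 and 54.0 TPM, a log2 change of -0.45 (SE 0.0549, adjusted p = 0.00066). Of the 3 subunits together, PFKP made up 39.1%, 41.8% and 36.6% in MIA-PaCa2, against 79.9%, 81.4% and 82.2% in PANC-1. In MIA-PaCa2 PFKL held the largest share, with 45.5%, 42.5% and 47.9%, close to PFKP in the ESRP1 library.

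PFKFB3 and PFKFB4 make and break down fructose 2,6-bisphosphate, the activator of phosphofructokinase. PFKFB3 was at 31.96, 36.5 and 33.2 TPM in MIA-PaCa2 and at 15.8, 19.6 and 18.2 TPM in PANC-1, a log2 change of -0.89 (SE 0.067, adjusted p = 9.60e-05). PFKFB4 was at 6.69, 6.995 and 7.49 TPM against 7.65, 10.3 and 10.3 TPM, a log2 change of 0.36 (SE 0.102, adjusted p = 0.0204). The ranges of PFKFB4 do not overlap, but the PANC-1 LPCX value lies 0.17 above its MIA-PaCa2 counterpart on the log2 scale, against 0.50 and 0.41 for the other pairs.

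**Figure D2:**
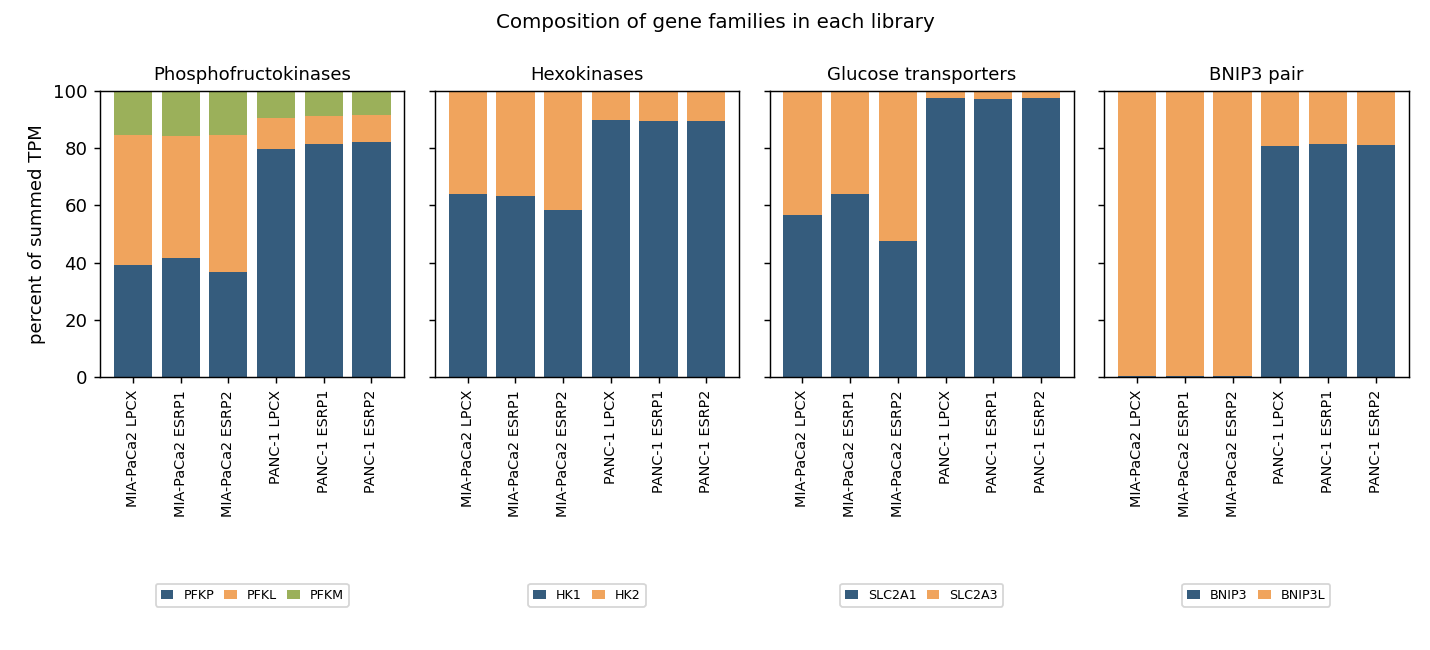
Composition of 4 gene families in each of the 6 libraries, as stacked bars of the percentage of the summed TPM of the genes shown, from 0 to 100. PFKP, HK1, SLC2A1 and BNIP3 fill more of the bar in each PANC-1 library than in any MIA-PaCa2 library.

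Aldolase splits fructose 1,6-bisphosphate, and ALDOA is its main form in most cells while ALDOC is typical of brain. ALDOA was at 1599, 1705 and 1675 TPM in MIA-PaCa2 and at 1339.9, 1489 and 1501 TPM in PANC-1, a log2 change of -0.20 (SE 0.0667, adjusted p = 0.0338) that was called in 7 of 14 alternative settings. ALDOC was at 2.38, 3.72 and 4.38 TPM in MIA-PaCa2 and at 4.31, 6.19 and 8.86 TPM in PANC-1, a log2 change of 0.71 (SE 0.112, adjusted p = 0.00189). The value of ALDOC in PANC-1 LPCX lies just under that in MIA-PaCa2 ESRP2, and in each line it is lowest with LPCX and highest with ESRP2.

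TPI1, which interconverts the products of that split, was at 1501, 1507 and 1440.2 TPM in MIA-PaCa2 and at 535, 629 and 597 TPM in PANC-1. It was the lower glycolysis enzyme with the largest difference between lines, a log2 change of -1.34 (SE 0.0748, adjusted p = 3.30e-05). PGK1, the first enzyme of the pathway to yield ATP, was at 622, 671 and 552 TPM against 544, 583 and 603 TPM, with overlapping ranges and a log2 change of -0.09 (SE 0.0869, adjusted p = 0.376). PGAM1, the mutase that follows, was at 731, 791 and 662 TPM in MIA-PaCa2 and at 995, 1112 and 1126 TPM in PANC-1, a log2 change of 0.57 (SE 0.0847, adjusted p = 0.00153). Of these 3 enzymes 1 was thus lower in PANC-1, 1 higher and 1 not called.

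ENO1, the common enolase, was the most abundant member in every library, at 2707, 2815 and 2651 TPM in MIA-PaCa2 and at 2489, 2706 and 2717 TPM in PANC-1. Its ranges overlapped, and the log2 change was -0.05 (SE 0.0762, adjusted p = 0.589). ENO2, the neuronal type of enolase, was at 42.7, 38.4 and 42.4 TPM in MIA-PaCa2 and at 85.5, 88.01 and 95.8 TPM in PANC-1, a log2 change of 1.11 (SE 0.0658, adjusted p = 4.06e-05). It remained a small part of the pair, at most 1.57% in MIA-PaCa2, against 3.41% in PANC-1. PKM, pyruvate kinase, which makes pyruvate and ATP, was at 2354, 2413 and 2541 TPM in MIA-PaCa2 and at 1642, 1690.3 and 1728 TPM in PANC-1, lower by a log2 change of -0.53 (SE 0.068, adjusted p = 0.000809).

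LDHA, which reduces pyruvate to lactate, was at 679, 754 and 757 TPM in MIA-PaCa2 and at 717, 889.6 and 876 TPM in PANC-1. The ranges overlapped through the PANC-1 LPCX library, and the log2 change of 0.18 missed the threshold (SE 0.0656, adjusted p = 0.0513). LDHB, the other main subunit of lactate dehydrogenase and no member of the set, was at 0.320, 0.574 and 0.156 TPM in MIA-PaCa2 and at 646, 726 and 757 TPM in PANC-1, a log2 change of 9.05 (SE 0.112, adjusted p = 1.13e-06). LDHB passed the expression filter through PANC-1 alone, so its passing had this difference built in. PDK1, a kinase that holds pyruvate back from the mitochondria, was at 10.8, 10.8 and 9.09 TPM against 6.92, 7.21 and 7.28 TPM, a log2 change of -0.46 (SE 0.0976, adjusted p = 0.00658).

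Of the oxygen sensor pathway, HIF1A encodes the regulated alpha subunit, whose protein level is set mainly by breakdown and is not measured here. HIF1A RNA was at 184, 191 and 166 TPM in MIA-PaCa2 and at 70.9, 81.3 and 81.8 TPM in PANC-1, lower by a log2 change of -1.20 (SE 0.0808, adjusted p = 6.42e-05). EGLN1, or PHD2, the main prolyl hydroxylase, was at 23.4, 27.2 and 23.0 TPM against 16.8, 19.6 and 21.4 TPM, a log2 change of -0.33 (SE 0.0956, adjusted p = 0.0208). EGLN3, a hydroxylase that is itself induced by hypoxia, was at 0.953 TPM or less in all libraries. CA9 and CA12, carbonic anhydrases of the cell surface that help to control pH, were as low. CA9, a classic hypoxia target, was listed at 0 in 5 libraries and at 0.058 TPM in PANC-1 ESRP2. CA12 lay between 0.530 and 0.802 TPM.

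The other hypoxia response genes held the largest differences of the set. ADM, which encodes the vasodilator peptide adrenomedullin, was at 0.191, 0.3999 and 0.495 TPM in MIA-PaCa2 and at 144, 165 and 182 TPM in PANC-1, a log2 change of 6.92 (SE 0.0707, adjusted p = 1.13e-06). BNIP3, a mitochondrial outer membrane protein that takes part in mitophagy, was at 0.494, 0.332 and 0.299 TPM in MIA-PaCa2 and at 102, 117 and 109 TPM in PANC-1, a log2 change of 6.33 (SE 0.0996, adjusted p = 1.21e-06). Both were under 1 TPM in every MIA-PaCa2 library, so these changes depend on the pseudocount: with 0.1 and 5 TPM in place of 1 they were 8.53 and 4.97 for ADM and 7.87 and 4.41 for BNIP3. BNIP3L, the close paralog with a like role, was at 98.0, 96.1 and 118 TPM in MIA-PaCa2 and at 24.5, 26.5 and 25.3 TPM in PANC-1, a log2 change of -1.99 (SE 0.0845, adjusted p = 1.39e-05). BNIP3 made up 0.501%, 0.345% and 0.253% of the pair in MIA-PaCa2, against 80.7%, 81.5% and 81.2% in PANC-1.

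NDRG1, a stress-responsive gene linked to differentiation, was at 23.4, 21.7 and 25.7 TPM against 4.39, 5.59 and 6.05 TPM, lower in PANC-1 by a log2 change of -1.96 (SE 0.103, adjusted p = 2.66e-05). MXI1, an antagonist of MYC, was also lower, at 12.0, 13.2 and 12.3 TPM against 6.54, 7.84 and 7.40 TPM, a log2 change of -0.71 (SE 0.0815, adjusted p = 0.000505). ANKRD37, a small ankyrin repeat protein, was at 2.34, 2.75 and 2.78 TPM against 6.35, 6.13 and 4.61 TPM, a log2 change of 0.88 (SE 0.146, adjusted p = 0.00243). P4HA1 and P4HA2 encode alpha subunits of the collagen prolyl hydroxylase. P4HA1 was at 31.0, 32.03 and 29.4 TPM in MIA-PaCa2 and at 51.6, 64.5 and 66.7 TPM in PANC-1, a log2 change of 0.95 (SE 0.0954, adjusted p = 0.000293). P4HA2 was at 49.5, 48.9 and 50.5 TPM against 35.1, 45.3 and 43.9 TPM, a log2 change of -0.26 (SE 0.0893, adjusted p = 0.038) that was called in 8 of 14 alternatives. The paralogs thus stood in the reverse order in both lines, P4HA2 above P4HA1 in MIA-PaCa2 and below it in PANC-1. KDM3A, a histone H3 lysine demethylase, was at 26.6, 26.3 and 30.1 TPM against 20.3, 25.1 and 24.0 TPM, a log2 change of -0.25 (SE 0.0831, adjusted p = 0.0354) that was called in 9 of 14.

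**Figure D3:**
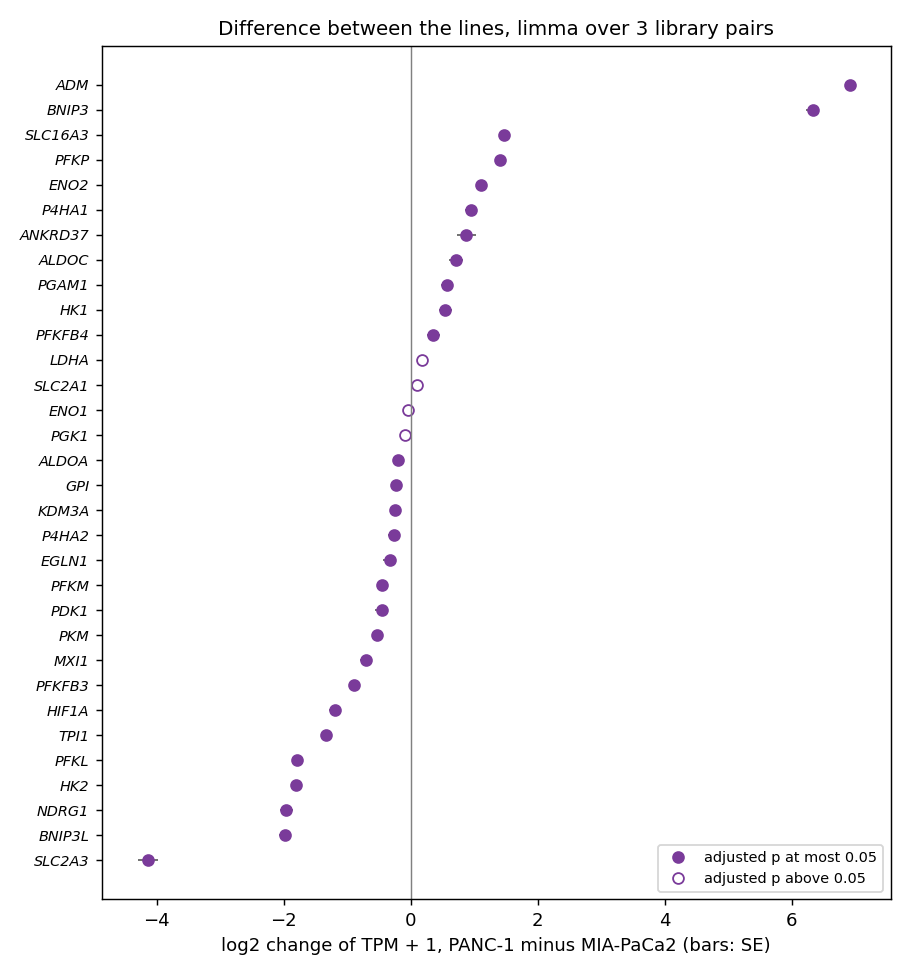
Log2 change of TPM plus 1 of PANC-1 against MIA-PaCa2 for the 32 tested members, from limma with construct as a term, with bars of 1 standard error and filled points for members with an adjusted p of at most 0.05. ADM at 6.92 and BNIP3 at 6.33 lie far to the right, SLC2A3 at -4.14 far to the left, and LDHA, SLC2A1, ENO1 and PGK1 are the open points near 0.

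In each of 4 lists of related genes outside the set, some genes were higher and some lower in PANC-1. Of 17 other glycolysis genes 11 were tested, with 5 higher and 5 lower in PANC-1 and a median log2 change of 0.00. Among them GAPDH, the glycolytic dehydrogenase, was at 7979, 8269.6 and 8088 TPM against 3336, 3722 and 3858 TPM, and PFKFB2 was at 5.70, 6.77 and 5.62 TPM against 31.7, 33.2 and 36.7 TPM. Of 23 lactate, pyruvate and glucose transport genes 17 were tested, with 6 higher and 8 lower and a median of -0.09, LDHB and SLC2A8 (log2 change 3.07, SE 0.102, adjusted p = 6.48e-06) moving most. Of 14 genes of the HIF machinery 12 were tested, with 7 higher and 3 lower and a median of 0.35. EPAS1, which encodes HIF-2 alpha, was at 10.6, 13.8 and 8.73 TPM in MIA-PaCa2 and at 87.8, 105 and 117 TPM in PANC-1 (log2 change 3.13, SE 0.157, adjusted p = 2.32e-05), the opposite direction to HIF1A. Of 34 further hypoxia response genes 24 were tested, with 10 higher and 10 lower and a median of -0.09. PLOD2, a collagen lysyl hydroxylase, and STC2, a secreted glycoprotein, were at 0.0685 TPM or less in MIA-PaCa2 and at 41.6 TPM or more in PANC-1. LDHB, SLC2A8, PLOD2 and STC2 passed the expression filter through PANC-1 alone, so a difference was built into their passing. All 4 lists are read against the 78.8% of genes that differed between the lines.

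Neither construct gave a call among the members. For ESRP1 against LPCX, with cell line as a term, limma called 0 of 32 members, with 4 at an unadjusted p under 0.05, and 1 of all 11829 genes (0.00845%). For ESRP2 against LPCX it called 0 members, again with 4 at an unadjusted p under 0.05, and 2 genes in all (0.0169%). For ESRP1 against ESRP2 it called 0 members, with 0 at an unadjusted p under 0.05, and 1 gene (0.00845%). These comparisons have 2 lines as their only repeats and 2 residual degrees of freedom, so a missed threshold does not show that levels were equal. ESRP1 and ESRP2 themselves, raised by design, were among the genes tested, and the called genes are not named here.

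As a description, fitted changes were mostly above 0 and small. They were above 0 for 30 of 32 members with ESRP1, against 68.3% of all genes, with a median of 0.13 against 0.06. With ESRP2, 28 of 32 were above 0, against 65.1% of all genes, with a median of 0.11 against 0.06. These counts depend on the scaling: under median ratio scaling they became 25 and 22 of 32, with medians of 0.08 and 0.05 against 0.01 and 0.01 for all genes. With coding transcripts alone they became 27 and 27, with medians of 0.09 and 0.09 against 0.03 and 0.06 for all genes. Both comparisons use the same LPCX libraries, and the medians rest on them. Without PANC-1 LPCX the medians were 0.06 and 0.06 against 0.04 and 0.04 for all genes, with 25 and 20 of 31 members above 0. Without MIA-PaCa2 LPCX they were 0.22 and 0.16 against 0.08 and 0.09, with 30 and 31 of 32 members above 0. Of the fitted differences between ESRP1 and ESRP2, 19 of 32 were above 0 (49% of all genes), with a median of 0.04. Without MIA-PaCa2 ESRP2 this became 8 of 32 and -0.03.

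ALDOC had the largest fitted change of any member with either construct. It passed the expression filter through PANC-1 ESRP1 and PANC-1 ESRP2 alone, so a difference from LPCX was built into its passing. Its level was 2.38, 3.72 and 4.38 TPM in MIA-PaCa2, against 4.31, 6.19 and 8.86 TPM in PANC-1, so both constructs lay above LPCX in both lines. The log2 change was 0.46 with ESRP1 (SE 0.137, adjusted p = 0.658) and 0.78 with ESRP2 (SE 0.137, adjusted p = 0.329). With a pseudocount of 0.1 TPM these changes were 0.57 and 0.94, and with 5 TPM 0.25 and 0.46. LDHA was at 0.23 with ESRP1 (SE 0.0804, adjusted p = 0.658) and 0.22 with ESRP2 (SE 0.0804, adjusted p = 0.345). It lay above LPCX in all 4 comparisons, which share the LPCX library of each line. Without PANC-1 LPCX the LDHA changes were 0.16 and 0.15, and without MIA-PaCa2 LPCX 0.30 and 0.30. ADM was at 0.21 and 0.33 (SE 0.0866, adjusted p = 0.658 and 0.329), from values under 0.5 TPM in MIA-PaCa2 and above 144 TPM in PANC-1. With a pseudocount of 0.1 TPM the ADM changes were 0.49 and 0.68, and with 5 TPM 0.12 and 0.21. PFKFB4 was at 0.22 and 0.26 (SE 0.125, adjusted p = 0.669 and 0.401), mostly from PANC-1, where both ratios to LPCX were 0.38, against 0.06 and 0.14 in MIA-PaCa2. Without PANC-1 LPCX its changes were 0.08 and 0.12, and without MIA-PaCa2 LPCX 0.36 and 0.40.

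With ESRP1, PFKFB3 at 0.24 (SE 0.082, adjusted p = 0.658) and HK2 at 0.23 (SE 0.0818, adjusted p = 0.658) completed the 6 largest changes of equal sign in both lines. With ESRP2 these were SLC2A3 at 0.31 (SE 0.192, adjusted p = 0.482) and NDRG1 at 0.26 (SE 0.126, adjusted p = 0.406). The NDRG1 change was 0.09 without PANC-1 LPCX and 0.42 without MIA-PaCa2 LPCX, and that of SLC2A3 was 0.01 without MIA-PaCa2 ESRP2 but 0.61 when PANC-1 ESRP2 was left out. The spread of SLC2A3 came from MIA-PaCa2, where it was at 36.4 TPM with ESRP1 and 63.2 TPM with ESRP2, on either side of 43.6 TPM with LPCX. In PANC-1 its 3 values lay within 0.2 TPM of each other. Between the paralogs, ESRP1 minus ESRP2 was -0.32 for ALDOC (SE 0.137), -0.16 for NDRG1, -0.13 for ENO2, -0.12 for ADM, 0.12 for PFKFB3 and 0.09 for MXI1, with adjusted p of 0.952 or 0.955 for each.

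Ratios within a line have no replicate and carry no test. In MIA-PaCa2, 20 of 28 members with at least 5 TPM in either library were above LPCX with ESRP1 (61.7% of all genes) and 17 of 28 with ESRP2 (60.2%), with medians of 0.06 and 0.03 against 0.04 and 0.05 for all genes. In PANC-1, 30 of 31 members were above LPCX with ESRP1 (68.8% of all genes) and 30 of 31 with ESRP2 (67.2%). The PANC-1 medians were 0.19 and 0.18 against 0.09 and 0.10 for all genes. The exception was ANKRD37 both times, at -0.04 and -0.39. The PANC-1 ratios share 1 LPCX library, so 1 low library would move both. That library also held the largest share of TPM in noncoding transcripts, 12.97% against 9.82% and 10.1% in PANC-1 with ESRP1 and ESRP2. With coding transcripts alone the PANC-1 medians were 0.14 and 0.13 against 0.05 and 0.07 for all genes, with 28 and 29 of 31 above LPCX. Under median ratio scaling they were 0.13 and 0.11 against 0.02 and 0.03, with 27 and 28 of 31 above LPCX.

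Few members passed a step of 0.32 on the log2 scale. In MIA-PaCa2 ESRP1 it was 0 of 28 upward (3.95% of all genes), and in MIA-PaCa2 ESRP2 1 of 28, SLC2A3 (8.07%). In PANC-1 it was 3 of 31 with ESRP1 (6.12%) and 6 of 31 with ESRP2 (9.24%). Downward it was 0 in both MIA-PaCa2 libraries (3.85% and 5.9% of all genes), 0 in PANC-1 ESRP1 (4.91%) and 1, ANKRD37, in PANC-1 ESRP2 (7.76%). Between the ESRP libraries of a line, HK1 was higher with ESRP1 (0.40, 7.12% of all genes upward) and SLC2A3 lower (-0.78, 8.56% downward) in MIA-PaCa2. In PANC-1 this was ANKRD37 (0.35, 3.65% upward) and ALDOC (-0.46, 2.23% downward). None of 27 members passed the step in both lines in 1 direction, with either construct, against 0.516% and 1.53% of all genes upward and 1.17% and 1.55% downward. Ratios above 0 in both lines were found in 20 of 27 members with ESRP1 (47.9% of all genes) and in 16 of 27 with ESRP2 (45.4%). All 4 ratios to LPCX were above 0 in 11 of 27 members, namely SLC2A1, SLC16A3, HK2, GPI, PFKM, PFKFB3, PFKFB4, ALDOA, PKM, LDHA and MXI1, against 31.8% of 9798 genes. All 4 were below 0 in 0 members (7.28% of genes).

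**Figure D4:**
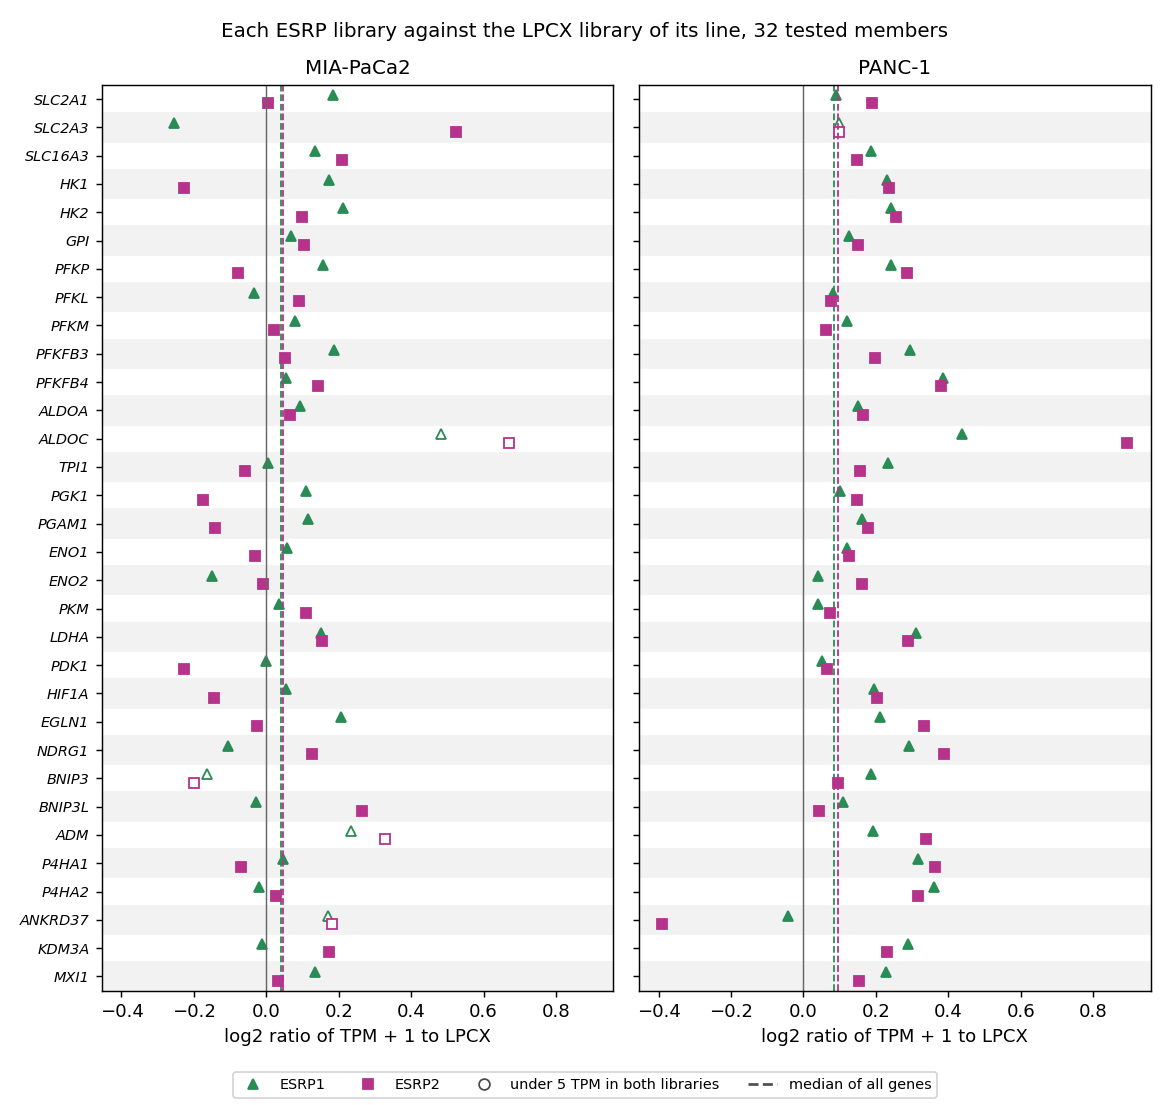
Log2 ratio of TPM plus 1 of each ESRP library to the LPCX library of its line for the 32 tested members, with 1 panel per line, triangles for ESRP1, squares for ESRP2, open marks for genes under 5 TPM in both libraries and dashed lines at the median of all genes. In PANC-1 nearly all marks lie right of 0 apart from ANKRD37, and in MIA-PaCa2 they lie on both sides.

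The 4 outside lists had 0 calls in each of the 3 ESRP comparisons, against 0.00845% (ESRP1), 0.0169% (ESRP2) and 0.00845% (ESRP1 against ESRP2) of all genes. The counts above 0 that follow are to be read against 68.3% of all genes with ESRP1 and 65.1% with ESRP2. Among 24 further hypoxia genes, 16 fitted changes were above 0 with ESRP1 and 15 with ESRP2, with medians of 0.09 and 0.09. AK4, a mitochondrial adenylate kinase, was at 28.1, 35.04 and 29.7 TPM in MIA-PaCa2 and at 6.15, 11.7 and 8.62 TPM in PANC-1, a log2 change of 0.57 with ESRP1 (SE 0.141, adjusted p = 0.658). Of 11 other glycolysis genes 6 were above 0 with each construct. Of 12 HIF machinery genes 10 and 9 were above 0, and of 17 transport and pyruvate genes 13 and 14. The coactivators CREBBP and EP300 had log2 changes of 0.36 and 0.31 with ESRP2 (SE 0.0974 and 0.0798, adjusted p = 0.329 for both).

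Since ESRP proteins act on splicing, transcript shares of the members were examined next. PKM is the textbook case of exon choice in glycolysis, with the exon of PKM1 (NM_182470) and that of PKM2 (NM_002654) used one at a time. Both are coding exons of 167 bases, at chr15:72203022-72203188 and chr15:72202454-72202620 on the minus strand (GRCh38, GENCODE release 29). P4HA1 has a like pair of 71-base coding exons, at chr10:73043887-73043957 (NM_000917) and chr10:73044981-73045051 (NM_001017962), also on the minus strand. They are printed because the transcripts compared below differ in which of them they hold, and capitals mark the bases that differ within a pair. PKM NM_182470 and NM_002654 also differ in their first exon and in the end of their last exon, so their shares do not rest on the printed exons alone.
PKM NM_182470: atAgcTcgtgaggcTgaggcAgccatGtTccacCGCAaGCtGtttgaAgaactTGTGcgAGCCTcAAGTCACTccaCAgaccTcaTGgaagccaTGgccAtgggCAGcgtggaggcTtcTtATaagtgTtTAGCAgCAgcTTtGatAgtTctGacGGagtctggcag
PKM NM_002654: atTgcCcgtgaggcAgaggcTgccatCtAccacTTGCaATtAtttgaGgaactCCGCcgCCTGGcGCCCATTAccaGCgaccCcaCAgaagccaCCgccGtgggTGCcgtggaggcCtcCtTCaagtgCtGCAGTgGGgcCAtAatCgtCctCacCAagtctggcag
P4HA1 NM_000917: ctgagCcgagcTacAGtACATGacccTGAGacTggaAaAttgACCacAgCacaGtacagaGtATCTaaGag
P4HA1 NM_001017962: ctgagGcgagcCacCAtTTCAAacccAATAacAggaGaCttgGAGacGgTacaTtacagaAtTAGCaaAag

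The PKM exons differ at 62 of 167 bases (62.87% identity), and those of P4HA1 at 28 of 71 (60.56%). PKM2 dominated in every library, with NM_002654 at 96.5%, 97.0% and 96.9% of PKM TPM in MIA-PaCa2 and at 94.4%, 95.8% and 96.1% in PANC-1. The transcripts with the PKM1 exon, NM_182470 and NM_182471, together had 1.77%, 1.245% and 1.38% in MIA-PaCa2, against 3.60%, 0.833% and 2.29% in PANC-1. In PANC-1, NM_182471 was at 56.3, 11.9 and 37.2 TPM, and another PKM transcript, NM_001206799, was at 21.1, 45.4 and 15.5 TPM. The exon content of NM_001206799 was not examined, nor whether reads shifted between these transcripts. Log2 odds of NM_002654 were 0.35 with ESRP1 (SE 0.253, adjusted p = 0.938) and 0.37 with ESRP2 (SE 0.253, adjusted p = 0.831).

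Across 12965 transcripts of 6003 genes, 33 transcripts of 21 members could be tested. For ESRP1 and for ESRP2 against LPCX, limma on log2 odds called 0 of the 33, with 0 at an unadjusted p under 0.05, and 1 and 0 of all transcripts (0.00771% and 0%). No member transcript moved by 10 percentage points the same way in both lines with either construct, against 1.82% of all transcripts for ESRP1 and 2.40% for ESRP2.

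Between the lines 8 of the 33 were called, against 17.3% of all transcripts, and with any 1 library left out 1 or 2 remained. One differed by 20 points or more (5.95% of all), the ALDOA transcript NM_184041. It had 64.5%, 66.9% and 65.7% of ALDOA TPM in MIA-PaCa2, against 92.7%, 93.5% and 93.9% in PANC-1 (log2 odds 2.87, SE 0.180, adjusted p = 0.00535), and its call held with any 1 library left out. NM_184043 was the next largest, with 22.1%, 20.3% and 20.4% against 3.89%, 3.26% and 2.83%. NM_000034 had 12.0%, 11.4% and 12.3% against 2.46%, 2.33% and 2.20% (log2 odds -2.48, SE 0.371, adjusted p = 0.0205), a call lost with any 1 library left out. NM_184041 and NM_184043 code over the same number of bases, 1092. They differ in their first exon, which starts at position 30065673 of chromosome 16 for NM_184041 and at 30064274 for NM_184043 (plus strand, GRCh38). Their annotated last exons end at 30070420 and 30070414.

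P4HA1 differed in the choice between the exons printed above. NM_000917 had 72.4%, 76.5% and 73.9% in MIA-PaCa2, against 54.6%, 54.9% and 61.2% in PANC-1 (log2 odds -1.08, SE 0.194, adjusted p = 0.0282). NM_001017962 had 25.1%, 22.0% and 21.1% against 41.2%, 41.4% and 36.4% (log2 odds 1.10, SE 0.175, adjusted p = 0.0226). The 3 libraries of a line did not overlap with those of the other for either transcript, but both calls were lost when any 1 library was left out. The P4HA2 transcript NM_001142599 had 34.6%, 35.8% and 38.1% in MIA-PaCa2, against 22.3%, 18.2% and 24.1% in PANC-1 (log2 odds -1.02, SE 0.190, adjusted p = 0.0306) and was lost in the same way. Shares come from the quantifier's split of reads between overlapping transcripts, and no junction reads were used here.

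**Figure D5:**
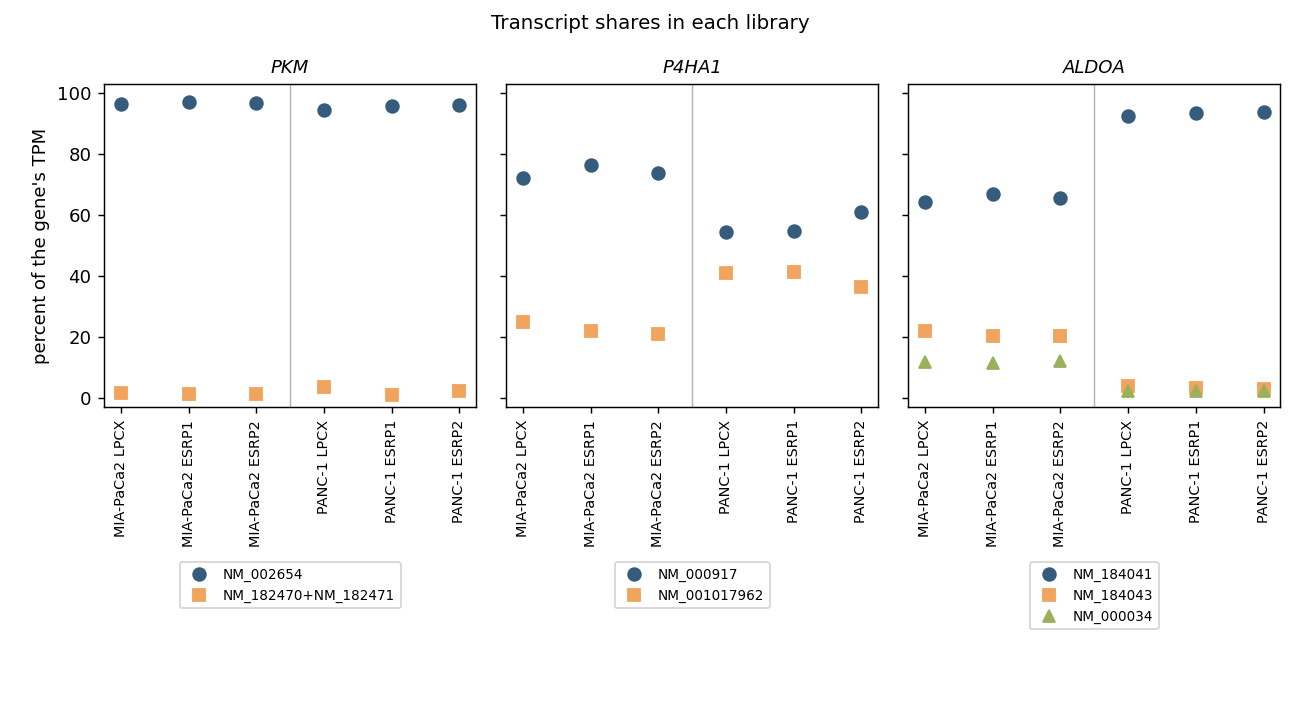
Percentage of the gene's TPM assigned to the named transcripts of PKM, P4HA1 and ALDOA in each of the 6 libraries, with a line between MIA-PaCa2 and PANC-1. PKM2 (NM_002654) stays between 94.4% and 97.0%, while P4HA1 and ALDOA shares differ between the lines and little between constructs.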

How the data were processed

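The authors deposited 1 table of TPM, a signal scaled by length and library, for RefSeq transcripts. Salmon and GRCh38 (hg38) are named per the submitters' processing notes, and an mRNA kit with 2 ug of total RNA per the labels. Versions upstream are not given in the sources. Of 67792 rows, 8664 repeat a transcript and were dropped, which left 59128 transcripts in 27408 genes and columns that sum to 1000000. Some headers are irregular (ESRP12 for ESRP2 in MIA-PaCa2, and the spelling of that line for LPCX), and those columns were assigned by elimination.

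Limma 3.58.1 (R 4.3.3) with a trend was fitted to log2(TPM + 1) of the 11829 genes that reached 5 TPM in 2 libraries or more. Its terms were construct and cell line, with Benjamini-Hochberg adjustment over all genes at 0.05. The cell line is the block of the ESRP comparisons, since both lines received the same 3 constructs, and the construct that of the line comparison. The spread is what construct and cell line leave between single libraries, with 2 residual degrees of freedom and a prior of 3.42. Transcript odds used a pseudocount of 0.5 TPM, for transcripts that reached 10% somewhere, in genes of 2 or more transcripts and 5 TPM throughout. The fit was tested on simulated data. With 50 simulated ESRP1 changes of each size it called 4% at 1.25-fold, 66% at 1.5-fold and 98% at 2-fold, with 15 false calls. For simulated line changes of these sizes it called 20%, 86% and 100%, with 13 false calls. The simulated noise was drawn at the fitted spread and many genes were changed at once. In the real data, limma called 1 gene with ESRP1 and 2 with ESRP2, so these rates may be too high for those comparisons. ALDOC with ESRP2, at 1.72-fold, was not called there (limma adjusted p = 0.329). A missing call thus says little about changes near 1.25-fold and does not exclude larger ones.

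The members and lists were chosen with earlier results of these data known. All members are described by level. Fitted changes are named for called members, for the 10 largest between lines and for the 6 largest of equal sign in both lines with a construct. Outside the members, at most 2 genes per list were named by size of change. Transcripts were named from a move of 10 points in both lines or a line difference of 20 points. PKM, P4HA1, P4HA2 and the other ALDOA transcripts were named after their values were seen, as were the 4 promoter stretches. Depth is unknown, so no counting intervals are given. One marker of the leukocyte list is not reported here.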

Additional observations from a re-analysis of the deposited data

Results flagged for a closer look

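In 4 of the 32 tested members both ratios to LPCX pointed one way in MIA-PaCa2 and the other way in PANC-1. The difference between the lines was not tested for any of them, since each ratio rests on 2 libraries and both ratios of a line share its LPCX library. Ratios are on the log2 scale, ESRP1 first and ESRP2 second. ENO2, the neuronal type enolase, had MIA-PaCa2 ratios of -0.150 and -0.0103, against 0.0406 and 0.162 for PANC-1. PDK1, the pyruvate dehydrogenase kinase, had MIA-PaCa2 ratios of -0.000856 and -0.226, against 0.0512 and 0.0639 for PANC-1, so its first value is next to 0. BNIP3 had -0.165 and -0.201 for MIA-PaCa2, where it was under 0.5 TPM, against 0.187 and 0.0941 for PANC-1. ANKRD37 went the other way, with 0.169 and 0.180 for MIA-PaCa2, where it was under 3 TPM, against -0.0438 and -0.390 for PANC-1. EGLN3, too low to be tested, at 0.953 TPM or less in all libraries, had -0.180 and -0.0844 for MIA-PaCa2, against 0.537 and 0.280 for PANC-1.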

How the results depend on the processing

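Of 28 members called between the lines, 20 were called under all 14 alternatives (other pseudocounts, filters and scaling, coding transcripts alone, no trend, no block and each library left out). The other 8 were lost under at least 1, ALDOA, P4HA2, KDM3A, PFKFB4, EGLN1, GPI, and ALDOC and ANKRD37, which fell under the expression filter when a library was left out. No direction of a called member reversed. The number of members called ranged from 23 to 29. No ESRP comparison called a member under any alternative. Without the replicate block, 28 members were called between lines and 0 for each ESRP comparison. The median log2 change of the members for ESRP1 against ESRP2 was 0.0379 and ranged from -0.0277 to 0.0694 when 1 library was left out, below 0 without MIA-PaCa2 ESRP2. The member transcripts called between lines, 8, fell to between 1 and 2 when any 1 library was left out, a fit with fewer samples. They were 6 with a pseudocount of 0.1 TPM and 12 with 2 TPM. Median ratio scaling factors were between -0.07 and 0.06 on the log2 scale, and with them the median member ratio in MIA-PaCa2 ESRP2 became -0.02. TPM hold no read counts, so how much of the spread of low genes is counting error cannot be told.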
